A study of Mus musculus with 6 samples.

Results

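The genes described here are the Wnt ligands, their receptors and the core components that carry the Wnt signal into the cell, measured in adult mouse spinal cord with and without Sox2 in astrocytes. They were the protein-coding genes whose symbol begins with Wnt, Fzd, Sfrp, Dkk, Dvl, Rspo or Lgr followed by a digit, together with Lrp5, Lrp6, Axin1, Axin2, Tcf7l1, Tcf7l2, Lef1, Ctnnb1, Apc and Apcdd1. Of the 35275 genes in the deposited table, 57 had such a name, and 49 of those reached the required 30 counts summed over the libraries. The other 8 were Wnt1, Wnt2, Wnt3a, Wnt8a, Wnt9b, Wnt10b, Dkk1 and Dkk4, with 0 counts in all libraries for Wnt3a and Dkk4 and at most 25 counts, those of Wnt9b, for the rest.

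The samples were whole spinal cords of 3 Sox2 cKO mice, which carry mGfap-Cre and Sox2fl/fl, and of 3 Ctrl mice, all on the C57BL/6 background. The sample labels give the Ctrl genotype as mGfap-Cre:Sox2+/+, the series' design text gives mGfap-Cre or Sox2fl/fl, and the methods of the study give Sox2fl/fl littermates. The labelled age is 90 days, whereas the extraction protocol gives 80 days. By the study's methods each group held 2 females and 1 male, and sex was not used in the tests below. Cre under the mouse Gfap promoter acts in most astrocytes, and other cells of the cord keep Sox2. The deposited columns carry numbers, so the libraries are called Ctrl library 2, 4 and 6 and Sox2 cKO library 1, 3 and 5. Each library held between 21507911 and 28392184 counts on genes.

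Wnt proteins are lipid-modified secreted signals that bind Frizzled receptors together with the co-receptors Lrp5 or Lrp6. Without a ligand, β-catenin is held low by a destruction complex built on Axin and Apc. Receptor engagement recruits Dishevelled to the membrane and disables that complex, so that β-catenin enters the nucleus and acts with TCF/LEF factors. R-spondins, through Lgr receptors, strengthen the signal, whereas Apcdd1 and most Sfrp and Dkk proteins restrain it outside the cell or at its surface. In the central nervous system Wnt7a and Wnt7b are known as the ligands that drive blood vessel growth and barrier formation.

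The targeted gene was examined first. Sox2 measured 19.9, 14.8 and 29.5 CPM (counts scaled to TMM-normalized library size) in Ctrl libraries 2, 4 and 6. In Sox2 cKO libraries 1, 3 and 5 it measured 3.16, 2.69 and 2.98 CPM, and the groups did not overlap (two-sided exact permutation p = 0.1, the smallest that 3 libraries against 3 allow). Astrocyte markers were present in all libraries, with a summed level of 12 markers of 9288 to 11752 CPM in Ctrl and 7064 to 7389 CPM in Sox2 cKO. In RNA from whole tissue, fewer cells of a type and less RNA per cell cannot be told apart.

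SOX2 binds DNA with the short core ACAAAG, which reads CTTTGT on the opposite strand. The study lists SOX2 sites found by ChIP-seq in adult cerebral cortex, not in spinal cord. For Wnt7a it also reports SOX2 binding by ChIP-qPCR in primary astrocytes. It further reports lower Wnt7a by RT-qPCR in the spinal cord of younger Sox2 cKO mice. Apc, Apcdd1 and Fzd8 were not looked up in its list of the most enriched sites, so whether they have a listed site was not tested. Of the other members, 5 were the nearest gene of 6 sites in that list. Their sequences are shown because these members are the nearest gene of a listed site, although some of the sites lie far from the gene. Each runs 5′ to 3′ as the list writes it, with the 11-base binding sequence in capitals. Coordinates are those of the 100-base window, in mm10, with the strand listed.

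Wnt7a, chr6:91401656-91401755, minus strand: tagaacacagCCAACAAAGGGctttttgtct
Wnt7a, chr6:91346151-91346250, plus strand: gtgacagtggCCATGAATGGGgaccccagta
Fzd1, chr5:4496306-4496405, plus strand: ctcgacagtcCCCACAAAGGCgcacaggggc
Dkk3, chr7:112170456-112170555, plus strand: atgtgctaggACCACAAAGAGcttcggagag
Lgr4, chr2:109943247-109943346, plus strand: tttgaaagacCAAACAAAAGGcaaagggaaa
Tcf7l1, chr6:72730567-72730666, minus strand: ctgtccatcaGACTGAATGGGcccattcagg

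The core ACAAAG stood in the capitals of 3 of the 6 sites, the first Wnt7a site and those of Fzd1 and Dkk3, and in 31.5% of the 1055 listed sites. Only that exact string was counted, in the 11 bases as written. The study reports CAAAG or a variant of it in nearly all of its most enriched sites. By the GENCODE annotation the first Wnt7a site lay inside the gene, 9.7 kb from its start, and the other lay downstream of the gene, 65.2 kb from the start. The sites of Lgr4 and Tcf7l1 also lay inside their genes, 25.6 kb and 58.6 kb from the start. The Dkk3 site was 11.4 kb upstream, and the Fzd1 site was 261.7 kb from the start, downstream of the gene. Of these 5 members, Wnt7a and Fzd1 were among the genes that differed between the groups in the edgeR test below, as 24.6% of all genes did. Dkk3, Lgr4 and Tcf7l1 were not. Whether a listed site goes with a difference was not tested.

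Promoter windows of 250 bases before to 50 after the start were taken from RefSeq (build GRCm38.p6) and matched 31 of the 49 members by symbol, with 39 windows. The SOX core, on either strand, was present in 20.5% of these windows and in 18.7% of the 32851 windows of all genes. The TCF core ATCAAAG, also searched on both strands and alike to the SOX core in its last 5 letters, was present in 5.13% of the members' windows, those of Wnt11 and Wnt5b, and in 3.73% of all windows. Of the 10 members that differed, 5 had a window, and that of Fzd1 held the SOX core while none held the TCF core. Fzd1 and Tcf7l1 had both a listed SOX2 site and a SOX core in the promoter window, so the 30 bases around the core (in capitals) are shown, read on the gene's strand.

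Fzd1, chr5:4758236-4758265, minus strand: ttcatagctactCTTTGTgccggagcggag
Tcf7l1, chr6:72789056-72789085, minus strand: gccctgtcaaaaCTTTGTcgccgcagcggc

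Per kilobase of gene length, which makes genes comparable, the members spanned a wide range in Ctrl spinal cord. Ctnnb1, which encodes β-catenin, stood highest at 99.1 ± 3.75 CPM per kb (SD, n = 3), followed by the secreted protein Dkk3 at 49.2 ± 1.37 and the scaffold Apc at 29.1 ± 4.27. Dvl1 and Dvl3 came next, at 12.3 ± 1.28 and 12.3 ± 0.784 CPM per kb, a difference smaller than the spread between libraries. The highest ligand was Wnt7b with 9.19 ± 1.72 CPM per kb, the highest co-receptor was Lrp6 with 9.06 ± 1.13, and the highest Frizzled was Fzd9 with 8.48 ± 1.41. These 3 levels also lay within each other's spread.

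Lower in the order stood the leading members of the remaining classes. Lgr4, a receptor for R-spondins, measured 6.96 ± 0.357 CPM per kb, Rspo2 measured 3.25 ± 0.294, and Tcf7l2, the highest TCF/LEF factor, measured 1.68 ± 0.244. The least abundant members were Rspo4 with 0.114 ± 0.0235 and Dkk2 with 0.118 ± 0.0237 CPM per kb. The 13 ligands ranged from 0.184 CPM per kb for Wnt8b up to Wnt7b, with Wnt4 at 4.51 ± 0.826, Wnt3 at 3.45 ± 0.296 and Wnt7a at 3.42 ± 0.619 next below Wnt7b.

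**Figure D1:**
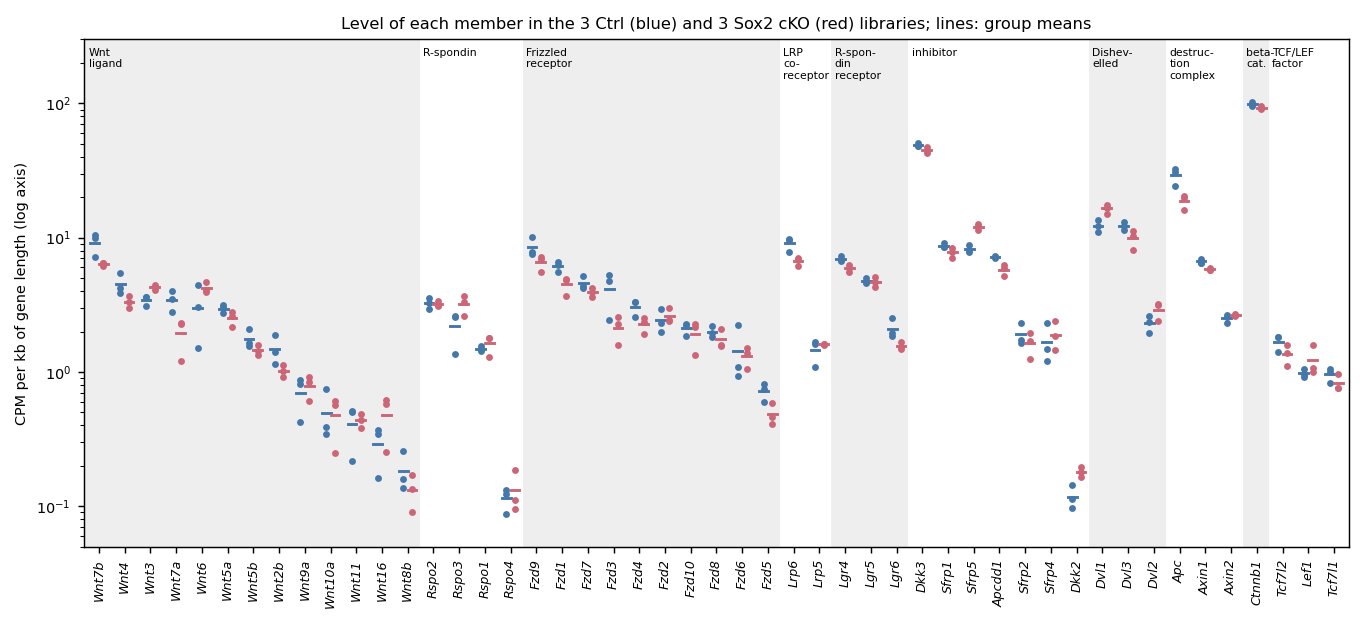
Level of each of the 49 members in CPM per kb of gene length on a log axis, ordered by class, with a point for each library (blue, Ctrl; red, Sox2 cKO) and a line at each group mean. Ctnnb1 stands highest at 99.1 CPM per kb in Ctrl, and the points of both groups overlap for most genes.

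Differences between the groups were tested gene by gene with edgeR's quasi-likelihood test on the counts, with Benjamini-Hochberg adjustment over all 16137 genes that passed the filter on low counts. All members but Rspo4 passed, leaving 48, and Rspo4 had between 5 and 13 counts in each library. At an adjusted p below 0.05, 8 members were downregulated in Sox2 cKO: the ligands Wnt7a, Wnt7b and Wnt4, the receptors Fzd1 and Fzd3, the co-receptor Lrp6, the scaffold Apc and the inhibitor Apcdd1. The inhibitor Sfrp5 and the transducer Dvl1 were upregulated.

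The downregulated members were 16.7% of those tested, beside 12.4% of all genes, and the upregulated were 4.17%, beside 12.2% of all genes. The share of downregulated members was thus near the background. An unadjusted p below 0.05 was found for 21 of the 48 members (43.8%), beside 39.6% of all genes. By sign alone, 32 members were lower and 16 higher in Sox2 cKO, with a median log2 fold change of -0.17, against 0.02 over all genes. All 3 Ctrl libraries were above all 3 Sox2 cKO libraries for 18 members (37.5%, against 22.1% of all genes). The reverse held for 4 members (8.33%, against 22.6%).

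Gene length moved with these differences. Over all genes the log2 fold change fell with length (Spearman's rho of -0.48 across genes, which are not independent replicates), and the members were longer than the typical gene, with a median of 3598 against 3060 bases. When each library was corrected for its own trend with length, 4 members were lower and 2 higher, where 6.99% and 6.08% of all genes passed. The 5 members that passed in both fits were Wnt7a, Wnt7b, Apcdd1, Sfrp5 and Dvl1. Apc, Lrp6, Fzd1, Fzd3 and Wnt4 no longer passed, and Fzd9 did. The fold changes of Wnt5a, Lgr5, Rspo1 and Sfrp4 changed sign. DESeq2 on the uncorrected counts called 9 lower and 2 higher, adding Lgr6 to the 10, where 15.0% and 12.7% of all genes were lower and higher.

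The calls also rested on single libraries. Without Ctrl library 4 or without Sox2 cKO library 1, edgeR called 0 members. An unadjusted p below 0.05 was then found by edgeR for 13 and 15 members. These were 27.1% and 31.25% of the members, near the 29.06% and 30.002% of all genes. DESeq2 called 8 members in each case, or 16.3%, beside 8.12% and 9.73% of the 24115 and 24136 genes it was given. Those totals include genes to which DESeq2 gives no adjusted p, which lowers the share over all genes. With all libraries, 15635 of 24442 genes had one. The members' share therefore cannot be read as above the background. The edgeR fits called 3 members without Ctrl library 6 (Apc, Sfrp5 and Wnt4) and 2 without Sox2 cKO library 3 (Apc and Sfrp5). They called 6 without Sox2 cKO library 5 and 16 without Ctrl library 2. The calls over the whole table moved alike, with 26 genes without Ctrl library 4, 8 without Sox2 cKO library 1, 1082 without Ctrl library 6, 1359 without Sox2 cKO library 3, 2665 without Sox2 cKO library 5 and 6119 without Ctrl library 2. In the last 4 of these fits 6.54%, 8.31%, 16.3% and 36.9% of all genes were called, beside 6.25%, 4.17%, 12.5% and 33.3% of the members. The sign of each of the 10 called members was the same in all 6 of these fits. Among the 8 downregulated members, Ctrl library 2 was the lowest Ctrl library for 6.

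**Figure D2:**
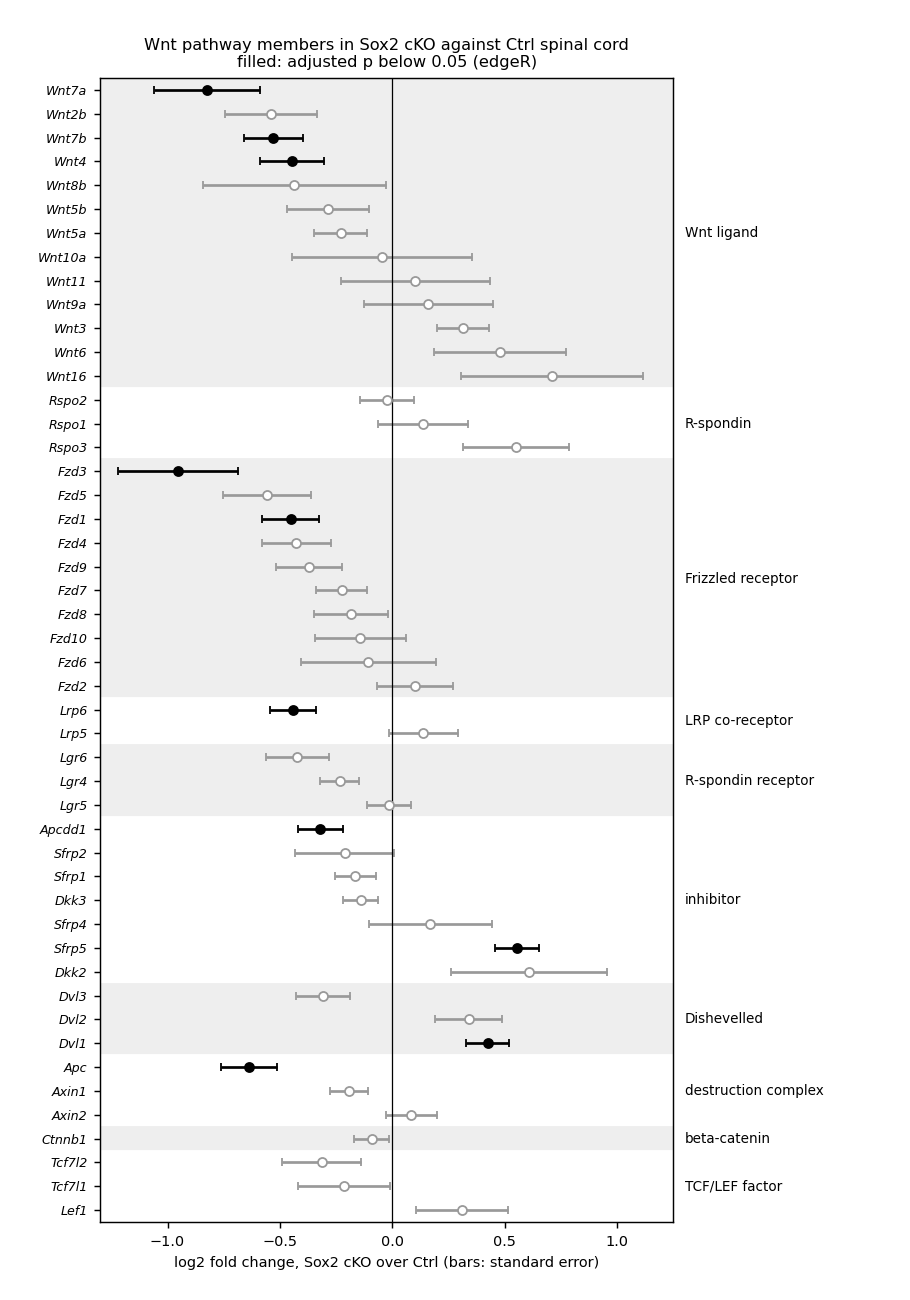
Log2 fold change of Sox2 cKO over Ctrl for the 48 tested members, grouped by class, with bars of 1 standard error from edgeR and filled points for adjusted p below 0.05. Of the 10 filled points, 8 lie left of 0 and 2, Sfrp5 and Dvl1, lie right of it.

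Among the ligands, 3 of 13 were downregulated and 0 upregulated, where 12.4% and 12.2% of all genes were. Wnt7a (chr6:91363981-91411363, mm10, minus strand) had the largest decrease. It measured 8.79, 11.1 and 12.7 CPM in Ctrl libraries 2, 4 and 6, and 7.25, 7.30 and 3.85 CPM in Sox2 cKO libraries 1, 3 and 5. The groups did not overlap, and Sox2 cKO library 5 stood lowest. The expression of Wnt7a fell by 43.5% (log2 fold change -0.82 ± 0.24 SE, edgeR adjusted p = 0.0314), and with the length correction the adjusted p was 0.0429.

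Wnt7b (chr15:85535437-85582473, minus strand), the closest relative of Wnt7a, moved in the same direction. Ctrl libraries 2, 4 and 6 measured 25.2, 34.7 and 36.4 CPM, and Sox2 cKO libraries 1, 3 and 5 measured 22.8, 21.4 and 22.5 CPM. Ctrl library 2 was close to the Sox2 cKO libraries, which varied little among themselves. Wnt7b fell by 30.7% (log2 fold change -0.53 ± 0.13 SE, edgeR adjusted p = 0.0205; 0.0319 with the length correction). It shares 324 exon bases with AU022754 on the opposite strand, and whether the counting used strand is not given in the sources used here.

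Wnt4 (chr4:137277489-137299726, plus strand), a ligand best known from kidney and reproductive tract development, measured 17.8, 22.8 and 16.2 CPM in Ctrl and 13.9, 12.5 and 15.4 CPM in Sox2 cKO, in the same order of libraries. The nearest values of the groups, 16.2 and 15.4 CPM, lay close together. Wnt4 fell by 26.6% (log2 fold change -0.45 ± 0.14 SE, edgeR adjusted p = 0.0448), and the adjusted p was 0.0929 with the length correction. Without Ctrl library 4, the highest of the Ctrl libraries, the log2 fold change was -0.29.

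When 1 library was left out, the highest adjusted p from edgeR was 0.103 for Wnt7a, 0.0925 for Wnt7b and 0.181 for Wnt4, each without Ctrl library 4. In those edgeR fits, Wnt7a passed in 1 of 6, and Wnt7b and Wnt4 each passed in 2 of 6. In DESeq2 fits that left out 1 library, Wnt7a and Wnt7b passed in 6 of 6 and Wnt4 in 3 of 6. Of the ligands that did not pass, Wnt2b was lower (log2 fold change -0.54, edgeR adjusted p = 0.0774) and Wnt3 higher (0.31, 0.0728), and neither overlapped between groups. Wnt5a, the classical ligand of β-catenin-independent signalling, had a log2 fold change of -0.23 (edgeR adjusted p = 0.174), which was 0.03 with the length correction.

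Some markers of astrocytes and of oligodendrocyte precursors were also lower in Sox2 cKO, as the 3 ligands were. Whether markers and ligands varied together from library to library was not tested. Of 12 astrocyte markers, 6 were downregulated and 0 upregulated, with a median log2 fold change of -0.31, where 12.4% of all genes were downregulated. Of 7 measured markers of oligodendrocyte precursors, 5 were downregulated and 0 upregulated, and their summed level was 217 to 257 CPM in Ctrl and 131 to 181 CPM in Sox2 cKO. With the length correction, 3 of the 12 astrocyte markers and 3 of the 7 precursor markers were lower. The part of these cells in the levels of Wnt7a, Wnt7b and the other members was not tested. Of the 10 oligodendrocyte, 8 microglia and 8 endothelial markers, 0 passed edgeR's test at the adjusted threshold. Unadjusted, 2, 4 and 2 of them had p below 0.05, and DESeq2 called 3, 3 and 0. With the length correction 2 of the oligodendrocyte and 1 of the microglia markers were lower.

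Of the 6 tested R-spondins and R-spondin receptors, 0 passed edgeR's adjusted threshold, 3 had an unadjusted p below 0.05 and DESeq2 called 1, Lgr6. Rspo2, the highest R-spondin, measured 9.78, 10.9 and 11.7 CPM in Ctrl libraries 2, 4 and 6 and 11.2, 10.3 and 10.4 CPM in Sox2 cKO libraries 1, 3 and 5 (log2 fold change -0.02 ± 0.12 SE). Lgr4, which has a listed SOX2 site inside the gene, measured 34.7, 37.2 and 33.7 CPM in Ctrl and 30.04, 31.6 and 28.1 CPM in Sox2 cKO. Its groups did not overlap, but the log2 fold change of -0.23 ± 0.09 SE had an edgeR adjusted p of 0.0724. Lgr6 had a log2 fold change of -0.42 with an edgeR adjusted p of 0.0520 and a DESeq2 adjusted p of 0.0337. It was -0.17 (adjusted p = 0.430) by edgeR with the length correction and -0.27 (adjusted p = 0.188) by edgeR without Ctrl library 6. Lgr5 had a log2 fold change of -0.01, or 0.11 with the length correction.

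Of the 10 Frizzled receptors, 9 had a negative log2 fold change and 2 were downregulated, where 12.4% of all genes were. Fzd1 (chr5:4753839-4758035, minus strand) measured 23.3, 26.2 and 27.5 CPM in Ctrl libraries 2, 4 and 6. In Sox2 cKO libraries 1, 3 and 5 it measured 15.2, 20.3 and 20.6 CPM, each below every Ctrl library. Fzd1 fell by 26.9% (log2 fold change -0.45 ± 0.13 SE, edgeR adjusted p = 0.0298), and the adjusted p was 0.0550 with the length correction.

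Fzd3 (chr14:65192449-65262463, minus strand), a receptor known for axon guidance, had the largest fold change of the members that passed. It measured 10.1, 21.99 and 19.6 CPM in Ctrl and 6.54, 10.6 and 9.44 CPM in Sox2 cKO. Ctrl library 2 lay within the range of the Sox2 cKO libraries, so that the groups overlapped. Fzd3 fell by 48.3% (log2 fold change -0.95 ± 0.27 SE, edgeR adjusted p = 0.0295; 0.0502 with the length correction).

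Leaving out 1 library raised the edgeR adjusted p to at most 0.104 for Fzd1 and 0.125 for Fzd3, both without Ctrl library 4. Fzd1 passed in 2 of 6 of these edgeR fits and Fzd3 in 1 of 6. By DESeq2 they passed in 3 of 6 and 4 of 6. A further 3 Frizzled genes missed the threshold with no overlap between the groups, Fzd5 (log2 fold change -0.56, edgeR adjusted p = 0.0598), Fzd4 (-0.43, 0.0650) and Fzd9 (-0.37, 0.0846). Fzd9, the highest Frizzled per length, had an adjusted p of 0.0499 with the length correction. Fzd4 is known as a receptor of endothelial cells, whose 8 markers had a median log2 fold change of 0.01.

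The co-receptors Lrp5 and Lrp6, which act in the same receptor complex, had fold changes of opposite sign. Lrp6 (chr6:134446476-134566965, minus strand) measured 72.8, 92.4 and 89.6 CPM in Ctrl libraries 2, 4 and 6 and 57.6, 63.8 and 65.9 CPM in Sox2 cKO libraries 1, 3 and 5. All Sox2 cKO libraries were below all Ctrl libraries, and Lrp6 fell by 26.5% (log2 fold change -0.44 ± 0.10 SE, edgeR adjusted p = 0.0167). Its length of 9368 bases is among the longest of the members, and with the length correction the log2 fold change was -0.09 and the adjusted p 0.308. Without Ctrl library 4 the edgeR adjusted p was 0.0803. In fits with 1 library left out, Lrp6 passed in 2 of 6 by edgeR and in 6 of 6 by DESeq2.

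Lrp5 measured 14.4, 14.9 and 9.70 CPM in Ctrl and 14.1, 14.3 and 14.5 CPM in Sox2 cKO. Only Ctrl library 6 stood apart, and the log2 fold change of 0.14 ± 0.15 SE turned to -0.03 without that library. With the length correction it was 0.47 (edgeR adjusted p = 0.0983). The difference between Lrp5 and Lrp6 was not tested.

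**Figure D3:**
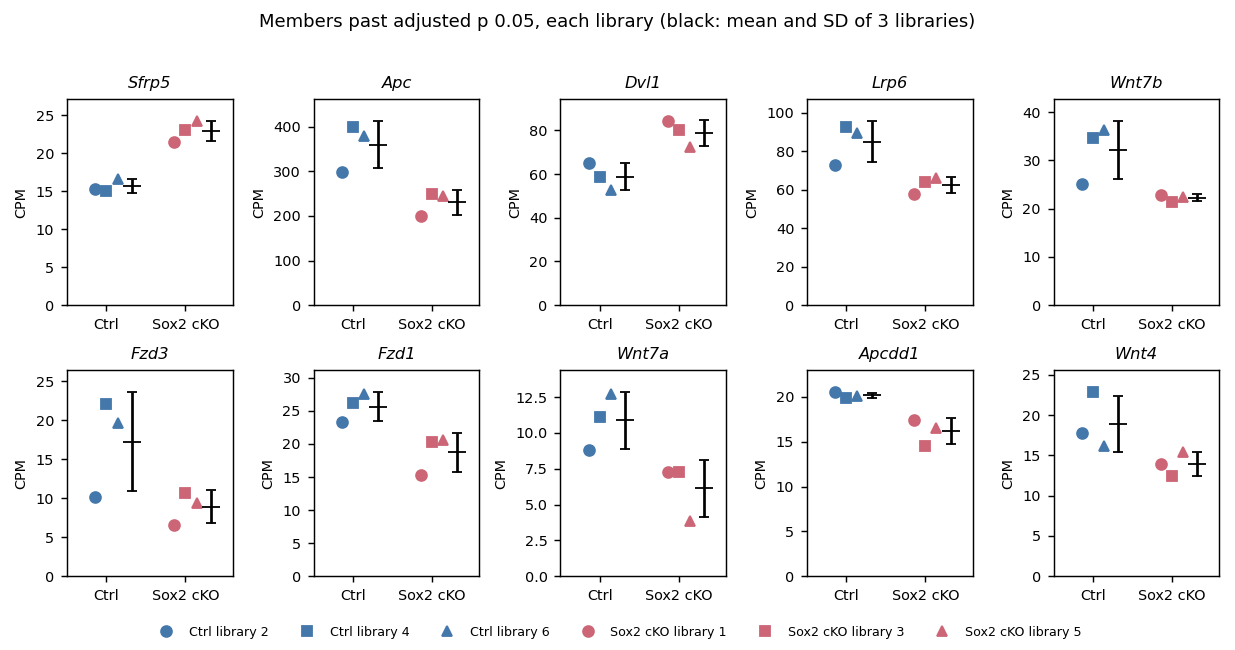
CPM of the 10 members with adjusted p below 0.05 in each of the 3 Ctrl and 3 Sox2 cKO libraries, on axes that start at 0, with the mean and SD of each group in black. The groups are separate for 9 of the 10 genes, and for Fzd3 Ctrl library 2, at 10.1 CPM, lies below Sox2 cKO library 3, at 10.6 CPM.

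The secreted and membrane inhibitors held both the member with the smallest p and a member of the opposite direction. Sfrp5 (chr19:42197971-42202252, minus strand), a secreted decoy that binds Wnt ligands, measured 15.3, 15.0 and 16.7 CPM in Ctrl libraries 2, 4 and 6. In Sox2 cKO libraries 1, 3 and 5 it measured 21.5, 23.1 and 24.2 CPM, each above every Ctrl library. Sfrp5 was upregulated by 46.8% (log2 fold change 0.55 ± 0.10 SE, edgeR adjusted p = 0.0125), and with the length correction the log2 fold change was 0.37 and the adjusted p 0.0406. In fits with 1 library left out, it passed in 4 of 6 by edgeR, with a highest adjusted p of 0.0656 without Sox2 cKO library 1, and in 6 of 6 by DESeq2.

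Apcdd1, on chromosome 18, encodes a membrane inhibitor of Wnt signalling. It measured 20.5, 19.9 and 20.1 CPM in Ctrl, which agreed closely, and 17.4, 14.6 and 16.5 CPM in Sox2 cKO. Apcdd1 fell by 20.0% (log2 fold change -0.32 ± 0.10 SE, edgeR adjusted p = 0.0422; 0.0298 with the length correction). In fits that left out a library it passed in 1 of 6 with edgeR and in 1 of 6 with DESeq2, and the highest edgeR adjusted p was 0.155 without Sox2 cKO library 3.

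Dkk3, placed among the inhibitors by its name, was by far the most abundant of that class and has the listed SOX2 site 11.4 kb upstream. It measured 171, 162 and 163 CPM in Ctrl and 143, 148 and 159 CPM in Sox2 cKO. Although the groups did not overlap, its log2 fold change was only -0.14 ± 0.08 SE (edgeR adjusted p = 0.208). Sfrp1, another secreted Frizzled-related protein, had a log2 fold change of -0.16 (edgeR adjusted p = 0.205), opposite in sign to that of Sfrp5.

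Within the cell, the 3 Dishevelled genes did not move together. Dvl1 (chr4:155847402-155859303, plus strand) measured 65.0, 58.4 and 52.8 CPM in Ctrl libraries 2, 4 and 6 and 84.1, 80.1 and 72.2 CPM in Sox2 cKO libraries 1, 3 and 5. All Sox2 cKO libraries were above all Ctrl libraries, and Dvl1 was upregulated by 34.1% (log2 fold change 0.42 ± 0.10 SE, edgeR adjusted p = 0.0163; 0.0193 with the length correction). Without Sox2 cKO library 1 the edgeR adjusted p was 0.0748. In fits with 1 library left out, Dvl1 passed in 2 of 6 by edgeR and in 6 of 6 by DESeq2. Dvl1 shares 36 exon bases with Tas1r3 on the opposite strand.

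Dvl2 had a log2 fold change of 0.34 (edgeR adjusted p = 0.118) with overlapping groups. Dvl3 measured 33.8, 38.4 and 35.8 CPM in Ctrl and 23.9, 33.0 and 29.99 CPM in Sox2 cKO, a log2 fold change of -0.31 (edgeR adjusted p = 0.0809). Whether the Dishevelled genes differed from each other was not tested.

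Of the destruction complex scaffolds, Apc had the second smallest p of the members. It lies on chromosome 18 and measured 300, 399 and 380 CPM in Ctrl libraries 2, 4 and 6, and 199, 250 and 244 CPM in Sox2 cKO libraries 1, 3 and 5. The groups did not overlap, and Ctrl library 2 was nearest to the Sox2 cKO libraries. Apc fell by 35.7% (log2 fold change -0.64 ± 0.13 SE, edgeR adjusted p = 0.0130). With 12346 bases Apc was the longest member, and with the length correction the log2 fold change was -0.22 and the adjusted p 0.0502. It passed in 4 of 6 edgeR fits without a library, with a highest adjusted p of 0.0664 without Ctrl library 4, and in 6 of 6 DESeq2 fits.

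Axin1 measured 24.7, 26.0 and 24.7 CPM in Ctrl and 21.8, 22.3 and 21.8 CPM in Sox2 cKO, a log2 fold change of -0.19 (edgeR adjusted p = 0.116). Axin2 is both a scaffold and the most widely used readout of β-catenin activity, since its own transcription responds to the pathway. It measured 11.3, 9.85 and 10.9 CPM in Ctrl and 11.2, 11.2 and 11.5 CPM in Sox2 cKO, and the groups overlapped. Its log2 fold change of 0.08 ± 0.11 SE did not pass (edgeR adjusted p = 0.618).

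Ctnnb1 itself measured 375, 353 and 349 CPM in Ctrl libraries 2, 4 and 6 and 334.5, 347 and 330 CPM in Sox2 cKO libraries 1, 3 and 5. The log2 fold change was -0.09 ± 0.08 SE (edgeR adjusted p = 0.406), and it was 0.01 on log2 FPKM. Transcript levels do not show the amount of β-catenin protein, which is mainly controlled by its degradation.

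The 3 TCF/LEF factors were low, and 0 passed the test of edgeR or DESeq2, adjusted or at an unadjusted p below 0.05 by edgeR. Lef1 measured 3.36, 3.87 and 3.48 CPM in Ctrl and 5.75, 3.92 and 3.66 CPM in Sox2 cKO, with Sox2 cKO library 1 above the rest. Its log2 fold change was 0.31 ± 0.21 SE (edgeR adjusted p = 0.287), and it was 0.09 without that library. Tcf7l2 had a log2 fold change of -0.31 (edgeR adjusted p = 0.211). Tcf7l1, which carries a SOX2 site inside the gene and the SOX core in its promoter window, measured 2.51, 3.20 and 3.04 CPM in Ctrl and 2.94, 2.32 and 2.30 CPM in Sox2 cKO. The groups overlapped, with a log2 fold change of -0.22 ± 0.20 SE (edgeR adjusted p = 0.459).

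**Figure D4:**
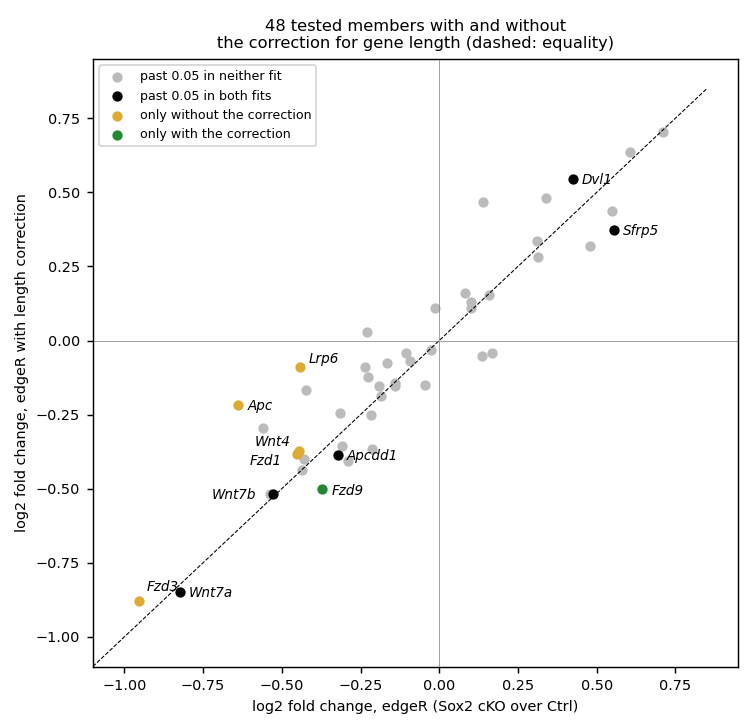
Log2 fold change of the 48 tested members from edgeR (horizontal axis) against the value after each library was corrected for its trend with gene length (vertical axis), with equality dashed and colours for adjusted p below 0.05 in both, either or neither fit. Apc and Lrp6 lie furthest above the line among the called members, moving from -0.64 to -0.22 and from -0.44 to -0.09, whereas Wnt7a and Wnt7b lie on it.

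Some members were lowest in Ctrl library 6, in which fibroblast markers were low as well. That library held the lowest value of all 6 libraries for 8 members, Wnt6, Wnt9a, Wnt16, Rspo3, Lrp5, Sfrp4, Fzd2 and Dvl1, which are named here after their values were seen. The count does not set it apart, since the lowest value fell in Ctrl libraries 2 and 4 for 3 and 7 members and in Sox2 cKO libraries 1, 3 and 5 for 16, 6 and 9. Wnt6 measured 3.14 CPM in that library and between 6.33 and 9.62 CPM in the other 5. For Rspo3 the values were 3.28 CPM against 6.10 to 8.78 CPM. Wnt16 measured 0.531 CPM there and Wnt9a 1.40 CPM.

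All 8 markers of meningeal fibroblasts were likewise lowest in Ctrl library 6, with a summed level of 218 CPM against 617 and 571 CPM in Ctrl libraries 2 and 4 and 463 to 604 CPM in Sox2 cKO. The part of fibroblasts in the levels of these members was not tested. With all libraries, Wnt6, Wnt16 and Rspo3 had log2 fold changes of 0.48, 0.71 and 0.55, and without Ctrl library 6 these were 0.17, 0.44 and 0.31. Neither set of values passed the test. Dvl1 had a log2 fold change of 0.35 without that library, and its adjusted p was then 0.0593. All these members were picked because Ctrl library 6 was their lowest. Leaving it out raises their Ctrl mean by construction, so nothing follows from the smaller fold changes.

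**Figure D5:**
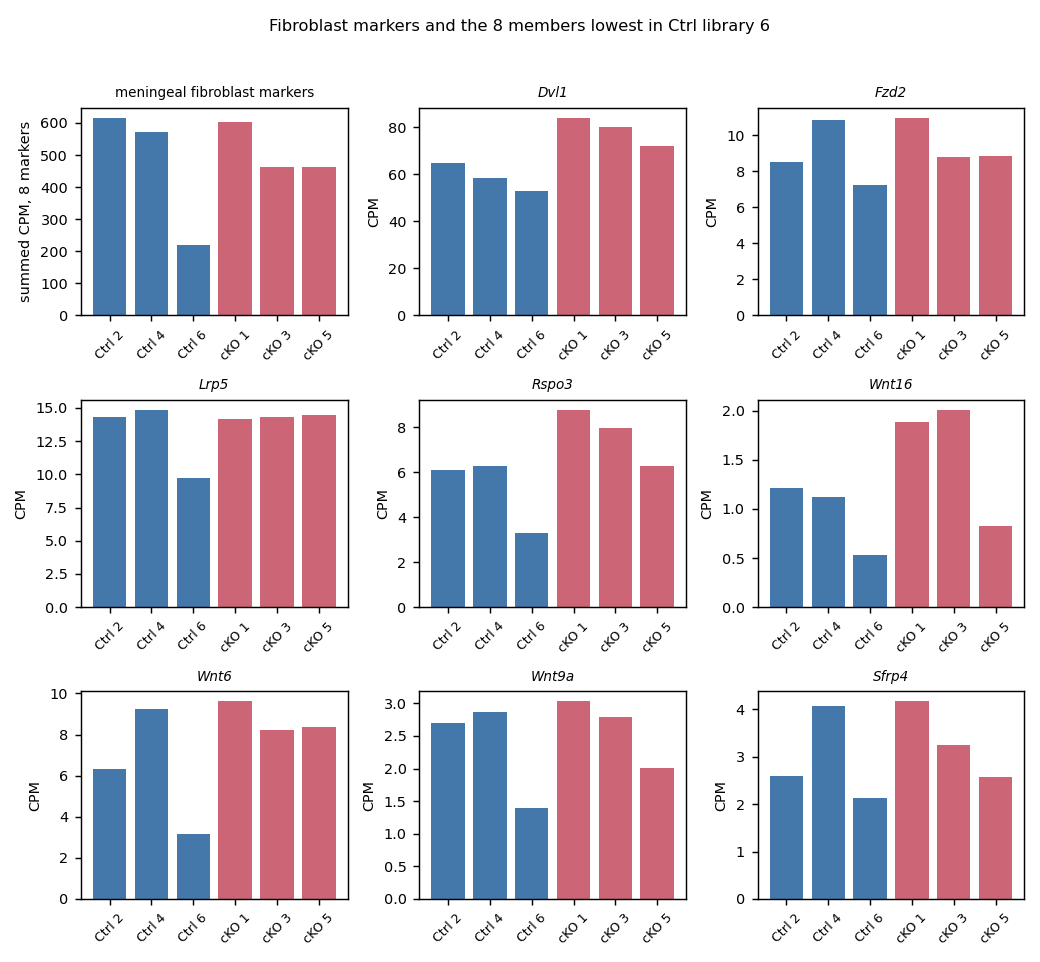
Summed CPM of 8 meningeal fibroblast markers, and CPM of the 8 members whose lowest value is in Ctrl library 6, as bars from 0 for each library (blue, Ctrl; red, Sox2 cKO). The fibroblast sum of 218 CPM in Ctrl library 6 stands apart from 463 to 617 CPM in the other 5 libraries.

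Beyond the members, 88 further genes of the pathway were listed by function, and 80 were tested. Of these, 26 were downregulated and 3 upregulated (36.25% called, beside 24.6% of all genes). Over all genes, 12.4% were downregulated and 12.2% upregulated. The median log2 fold change of the 80 genes was -0.18, against 0.02 over all genes. With the length correction, 14 were lower and 1 higher, where 6.99% and 6.08% of all genes passed, and the median was -0.05. The 80 genes were long, with a median of 4391 bases.

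The gene with the largest decrease was Lrp4, a relative of Lrp5 and Lrp6 that serves as the agrin receptor and binds Wnt inhibitors. It measured 37.1, 58.4 and 72.6 CPM in Ctrl libraries 2, 4 and 6 and 23.6, 26.1 and 27.7 CPM in Sox2 cKO libraries 1, 3 and 5, which do not overlap. Lrp4 fell by 53.9% (log2 fold change -1.12 ± 0.20 SE, edgeR adjusted p = 0.0125; 0.0197 with the length correction). It was 1 of 5 tested genes among the other Wnt receptors, and the only one past the threshold.

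Znrf3 encodes a membrane ubiquitin ligase that removes Frizzled and Lrp6 from the cell surface and is itself induced by β-catenin. Its levels were 14.5, 22.7 and 25.7 CPM in Ctrl and 10.1, 13.1 and 11.3 CPM in Sox2 cKO. The log2 fold change was -0.86 ± 0.19 SE (edgeR adjusted p = 0.0156; 0.0346 with the length correction). Of 15 tested secreted or membrane regulators, 3 were downregulated and 0 upregulated (20% called, beside 24.6% of all genes).

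Among 17 destruction complex genes and partners, 6 were downregulated and 0 upregulated (35.3% called, beside 24.6% of all genes). Gsk3b, the kinase that marks β-catenin for degradation, measured 315, 450 and 432 CPM in Ctrl and 198, 245 and 283 CPM in Sox2 cKO (log2 fold change -0.72 ± 0.16 SE, edgeR adjusted p = 0.0146; 0.0343 with the length correction). Apc2, the neuronal relative of Apc, measured 191, 282 and 271 CPM in Ctrl and 146, 164 and 169 CPM in Sox2 cKO (log2 fold change -0.64 ± 0.14 SE, edgeR adjusted p = 0.0147; 0.0503 with the length correction). In both genes Ctrl library 2 was the lowest Ctrl library.

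In the planar cell polarity branch, which uses Frizzled and Dishevelled without β-catenin, 6 of 15 tested genes were downregulated and 0 upregulated. The share called was 40%, beside 24.6% of all genes. Celsr2, an adhesion receptor of this branch, measured 166, 248 and 243 CPM in Ctrl and 120, 152 and 142 CPM in Sox2 cKO. Its log2 fold change was -0.67 ± 0.15 SE (edgeR adjusted p = 0.0164), and the adjusted p was 0.0580 with the length correction, where 2 of the 15 genes passed.

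The textbook targets of β-catenin signalling were tested in 11 genes, and 5 were downregulated, Znrf3, Cd44, Tnfrsf19, Nkd1 and Ccnd1. Calls thus made up 45.5% of the targets, beside 24.6% of all genes. Cd44, a hyaluronan receptor also known as a marker of fibrous astrocytes, fell by 35.0% (log2 fold change -0.62 ± 0.12 SE, edgeR adjusted p = 0.0130). Tnfrsf19, a receptor of the tumour necrosis factor family, fell by 26.6% (log2 fold change -0.45, edgeR adjusted p = 0.0127). Nkd1, a Dishevelled-binding inhibitor, fell by 24.9%, and Ccnd1, which encodes cyclin D1, fell by 20.8% (edgeR adjusted p = 0.0235 and 0.0261). With the length correction 4 of the 5 passed, and Nkd1 had an adjusted p of 0.0691. The targets that did not pass include Myc, with a log2 fold change of 0.51 (edgeR adjusted p = 0.0889), and Axin2 among the members.

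Of 16 nuclear cofactors, 6 were downregulated and 2 upregulated (50% called, beside 24.6% of all genes). With the length correction 1 was lower and 1 higher, where 6.99% and 6.08% of all genes passed. Tle2, a corepressor of the Groucho family, measured 14.4, 12.1 and 14.6 CPM in Ctrl and 24.8, 20.3 and 19.8 CPM in Sox2 cKO. Its log2 fold change was 0.66 ± 0.12 SE (edgeR adjusted p = 0.0127; 0.0185 with the length correction). Cby1, which binds β-catenin and restrains it, was upregulated by 27.0% (edgeR adjusted p = 0.0482), with an adjusted p of 0.847 after the length correction. Porcn, the acyltransferase that lipidates Wnt proteins before release, was upregulated by 27.8% (edgeR adjusted p = 0.0432; 0.0865 with the length correction), and it was the 1 gene of 5 for Wnt release and inactivation that passed.

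Calls of these further genes rested on single libraries too, with 0 lower and 0 higher in the edgeR fits without Ctrl library 4 or Sox2 cKO library 1. In those fits 30 of 80 and 34 of 81 of them had an unadjusted p below 0.05, beside 29.06% and 30.002% of all genes. DESeq2 without those libraries called 15 and 16 of 86 lower, beside 1080 of 24115 and 1382 of 24136 genes. Those totals include genes with no adjusted p. Markers of neurons (1 of 10 higher, Stmn2), ependymal cells (1 of 8 lower, Foxj1), pericytes and smooth muscle (1 of 8 higher, Kcnj8), Schwann cells (0 of 8) and meningeal fibroblasts (0 of 8) showed few calls by edgeR beside those of astrocytes and oligodendrocyte precursors. Of the Schwann cell and fibroblast markers, 1 each had an unadjusted p below 0.05, and DESeq2 called 0.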

How the data were processed

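Poly(A) RNA of whole spinal cord was sequenced from 3 Sox2 cKO and 3 Ctrl mice. The authors mapped reads onto mm10 using STAR 2.5 and obtained read counts per gene from HTSeq 0.6.1, which they deposited unnormalized. A second deposited table holds FPKM computed from those counts, and dividing one by the other gave each gene's length. Columns were grouped by their number. The group means of 1999 genes in the study's own table matched, and 0 matched with groups exchanged (relative tolerance 0.001).

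Gene names and positions came from GENCODE M21 (34490 of 35275 identifiers matched). The main test was run on the counts in edgeR 4.0.16 under R 4.3.3 (filterByExpr, TMM, quasi-likelihood test, Benjamini-Hochberg adjustment, threshold 0.05, no covariates). The biological coefficient of variation was 0.119. With 3 libraries a group, edgeR's p-values set the group difference against the variation between libraries, estimated with information shared across genes. Alternatives were DESeq2 1.42.0, DESeq2 size factors, upper quartile normalization, 2 filters, limma 3.58.1 on log2 FPKM (pseudocounts 1 and 0.1, mean FPKM of at least 0.5), a lowess correction for length (span 0.3) and leaving out each library. The leave-one-out fits by DESeq2 were chosen after seeing the data.

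Named genes were Sox2, all called members, a fixed set of further members (Wnt7a, Wnt7b, Fzd1, Lrp6, Ctnnb1, Axin2, Lef1 and those with a listed SOX2 site), the most abundant of each class, and of the other pathway genes the 5 largest calls in each direction with the called targets. Others were chosen after their values were seen. The members, the lists and the tests were chosen with earlier results of these data known. On simulated counts with a log2 fold change of 1, edgeR found 93.4% of the altered genes, and false calls made up 5.15% (15976 genes). With a simulated length trend, 94.2% of calls were false before and 1.65% after the length correction (16056 genes). That trend was a straight line on log2 length, the same in all Sox2 cKO libraries, and altered genes were drawn regardless of length. The correction was made to remove such a trend, so these shares do not show how many calls in the real data were false.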

Additional observations from a re-analysis of the deposited data

How the results depend on the processing

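The median log2 fold change of the members was negative under every alternative. It was -0.13 with upper quartile normalization, -0.062 and -0.091 by limma on log2 FPKM (pseudocounts 1 and 0.1), and -0.11 with the length correction. It ranged from -0.21 to -0.12 over the edgeR fits that left out a library and from -0.22 to -0.13 over those by DESeq2. With upper quartile normalization, Wnt4 and Apcdd1 were no longer called. Limma on FPKM called 2 members lower and 3 higher, and 12 other pathway genes lower and 5 higher, with both pseudocounts. The members called were 11.6% of 43, beside 24.3% and 23.8% of all genes. Limma kept the calls of Apc, Lrp6, Sfrp5 and Dvl1 and added Wnt3. It did not call Wnt7a, Wnt7b, Wnt4, Fzd1, Fzd3 or Apcdd1. There the median over all genes was 0.09 and 0.11, and 915 and 896 genes were lower against 2670 and 2614 higher, where edgeR had 2008 and 1962. The length correction called 4 members lower, and 14 other pathway genes lower and 1 higher. Leaving out a library with edgeR gave 0 to 13 members lower, 0 to 3 higher, and 0 to 30 other pathway genes lower and 0 to 6 higher. With DESeq2 those ranges were 5 to 13, 2 to 3, 15 to 31 (16 without Sox2 cKO library 1) and 1 to 4. Ctnnb1 reversed to 0.0078 and 0.0079 by limma on FPKM with pseudocounts of 1 and 0.1, and Lrp5 to -0.030 and -0.045 without Ctrl library 6 by edgeR and DESeq2, where edgeR without 1 library gave at most 0.25. The cause of these changes was not tested. No paired analysis was possible because the columns carry no replicate numbers. With 3 mice a group, members under about 1 CPM such as Wnt8b and Dkk2 had standard errors of 0.41 and 0.35, so that changes of that size were not detectable.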
